A study of Mus musculus with 24 samples.

Results

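Immediate-early genes and the stress genes read out with them were followed in CD11b+ and CD45+ cells sorted from the brain. That gate holds microglia, the macrophages that reside there, and can hold other leukocytes. The set held 35 genes, chosen by symbol from the 56980 genes in the deposited table. All 35 symbols were found, all had a mean of at least 1 normalized CPM over the 24 libraries, and all 35 were among the 14090 genes that passed the filter on low counts. Of these, 22 averaged at least 10 CPM. CPM is a gene's count scaled to a common library total, here with factors from the trimmed mean of M values, and levels are compared only within a gene.

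The libraries came from 12 mice aged 19 months, 6 without Grn (GrnKO, Grn-/-) and 6 wild type (WT, Grn+/+). Grn encodes progranulin, a secreted protein that reaches the lysosome. Animals of both genotypes were C57Bl/6J mice with the hTfR mu/hu knock-in, a humanized allele of the transferrin receptor. CD11b+ and CD45+ cells of each brain were sorted by autofluorescence at 488 nm, a readout of lipofuscin, into a high and a low bin of 1000 cells each. That gave 4 groups of 6 libraries, GrnKO high, WT high, GrnKO low and WT low, with 1 high and 1 low library per animal. In all groups the tissue was dissociated in 5 µM actinomycin D, which blocks transcription, and 2 µM anisomycin, which blocks translation. Where the gates between the bins were set is not stated in the labels. In bulk libraries of this kind, fewer cells of a type and less RNA per cell cannot be told apart.

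Immediate-early genes are transcribed within minutes of a stimulus without new protein synthesis, through transcription factors that are already in the cell. Kinases of the MAPK cascades act on serum response factor with its partners and on CREB at their promoters. The products include the FOS and JUN proteins, which pair as the transcription factor AP-1, the EGR, KLF and NR4A factors, and brakes on the response such as the DUSP phosphatases and the ZFP36 family, which destabilizes mRNAs. In microglia these genes are known to be induced by the handling of tissue itself, and transcription and translation blockers are used during dissociation to limit that. HSP70 chaperones, encoded by Hspa1a and Hspa1b, are induced through heat shock factor when proteins misfold.

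Promoter sequences are shown for Fos and Dusp1, 2 of the 3 genes that fell in the high bin over both genotypes. The promoter of Klf2, which also fell, matched none of the motifs searched and is not shown. Promoters of Hspa1a and Hspa1b are shown because their transcripts are near copies over 2200 aligned bases. Each run is the 250 bases before the RefSeq start site, 5′ to 3′ on the gene's strand, in build GRCm38.p6. They lie at chr12:85473640-85473889 (+ strand) for Fos, chr17:26508473-26508722 (- strand) for Dusp1, chr17:34972157-34972406 (- strand) for Hspa1a and chr17:34959239-34959488 (- strand) for Hspa1b. Capitals mark a TATA box (TATAAA) in Fos, a cyclic AMP response element (TGACGTCA) in Dusp1 and a heat shock element core (GAANNTTC) in both heat shock genes.
Fos: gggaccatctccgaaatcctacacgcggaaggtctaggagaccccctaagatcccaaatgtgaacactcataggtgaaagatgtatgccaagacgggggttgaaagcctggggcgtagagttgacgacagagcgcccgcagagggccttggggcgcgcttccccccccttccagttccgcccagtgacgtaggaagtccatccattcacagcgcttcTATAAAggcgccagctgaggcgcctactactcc
Dusp1: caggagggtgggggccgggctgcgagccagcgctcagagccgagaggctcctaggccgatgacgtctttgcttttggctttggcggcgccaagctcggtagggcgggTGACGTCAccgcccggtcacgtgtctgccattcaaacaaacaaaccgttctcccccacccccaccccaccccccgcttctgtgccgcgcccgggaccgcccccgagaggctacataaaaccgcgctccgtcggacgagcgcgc
Hspa1a: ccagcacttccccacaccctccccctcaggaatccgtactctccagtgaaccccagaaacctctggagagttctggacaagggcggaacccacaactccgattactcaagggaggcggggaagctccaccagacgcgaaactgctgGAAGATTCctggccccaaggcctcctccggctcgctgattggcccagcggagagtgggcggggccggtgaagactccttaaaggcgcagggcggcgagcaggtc
Hspa1b: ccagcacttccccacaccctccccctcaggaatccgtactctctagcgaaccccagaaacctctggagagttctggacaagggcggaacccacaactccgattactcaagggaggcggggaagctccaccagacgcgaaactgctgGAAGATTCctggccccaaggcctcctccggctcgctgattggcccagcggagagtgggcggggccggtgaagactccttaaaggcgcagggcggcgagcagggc

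These motifs and 3 others were searched on both strands in the same 250 bases of 32851 mouse promoters, which held a promoter for 31 of the 35 genes (45 promoters). Egr1, Egr3, Ier2 and Nfkbiz were not analysed here for promoter sequence. TGACGTCA was found in 3 genes (Btg2, Dusp1 and Maff) and in 1.55% of all promoters. The CArG box, the site of serum response factor, was found in 2 genes (Egr2 and Zfp36) and in 1.47% of all promoters. The AP-1 motif TGANTCA was found in 2 genes (Csrnp1 and Zfp36l1) and in 6.75% of all promoters. TATAAA was found in 6 genes (Btg1, Fos, Gadd45b, Nr4a2, Sgk1 and Zfp36l1) and in 12.37% of all promoters. GAANNTTC was found in 5 genes (Fosl2, Hspa1a, Hspa1b, Jun and Sgk1) and in 6.69% of all promoters. The full heat shock element of 3 units, which contains it, was found in 0 genes and in 0.47% of all promoters. No TGACGTCA match holds a TGANTCA match. These are matches of letters in a fixed window. A gene counted if any of its promoters matched, while the share over all is per promoter, so the units differ. Csrnp1, Egr2, Maff and Sgk1 had 3 to 6 promoters each.

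The labels were checked before the comparisons. Grn lay between 0.520 and 20.3 CPM in GrnKO libraries and between 439 and 1477 CPM in WT libraries, so 0 libraries opposed their genotype. The sex label was opposed in 12 of 12 animals by sex-linked transcripts, with Xist at 710 to 2100 CPM in libraries labelled male and 1.00 to 2.20 CPM in those labelled female. The label still divides each genotype into 2 classes of 3 animals, and that class was the covariate of the model. All 12 microglial marker genes were detected in every group, and their sum lay between 12742 and 37350 CPM. The lowest sums, 16644 CPM in the high library and 12742 CPM in the low library, both belonged to WT animal 1. That animal also had 7.91% mitochondrial counts in the high library and 9.70% in the low library, against at most 2.96% elsewhere, and astrocyte markers summed to 2207 and 1956 CPM in them, against at most 530 CPM elsewhere. Counts and medians, and the values of some genes, are therefore also given without it.

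Markers of other leukocytes differed between the bins. The summed level of 26 neutrophil, monocyte, T and NK cell markers lay between 268 and 4051 CPM in GrnKO high, 334 and 3108 CPM in WT high, 5367 and 34753 CPM in GrnKO low, and 2554 and 24023 CPM in WT low. Neutrophil markers alone summed to 173 to 3619 CPM in GrnKO high, 227 to 2941 CPM in WT high, 3835 to 31736 CPM in GrnKO low and 1658 to 22181 CPM in WT low. Of the 9, Csf3r averaged 152.9 CPM in GrnKO high, 154 CPM in WT high, 130.5 CPM in GrnKO low and 163 CPM in WT low, which is close to the lowest sums of high libraries. No gene of these 3 lists was at 0 in every library of a group. In 11 of 12 animals the summed level of the 3 lists was higher in the low library than in the high library, WT animal 1 being the exception. Values between bins with that level in the model are given for Fos, Klf2, Dusp1, Nr4a1, Btg1, Egr1, Egr3 and Sgk1.

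Over both genotypes, 3 of the 35 genes fell in the high against the low bin, Fos, Klf2 and Dusp1, and 0 rose (edgeR, Benjamini-Hochberg adjusted p under 0.05). This fit took the 24 libraries of the 12 animals without pairing them by animal. Of all 14090 genes, 0.873% fell and 0.44% rose. At an unadjusted p under 0.05, 13 of the 35 were lower in the high bin, against 6.76% of all genes. Within GrnKO, 2 of the 35 fell in the high bin, Fos and Klf2, against 0.177% of all genes, and 11 were lower at an unadjusted p under 0.05, against 4.64%. Within WT, 0 of the 35 passed, against 0.248% of all genes in either direction. In WT, 8 had an unadjusted p under 0.05 (8.25% of all genes did), and DESeq2 called 2 (Dusp1 and Fos) of 261 genes in all and limma-voom 1 (Fos) of 49, against 35 genes in edgeR. The median log2 fold change of the 35, high over low, was -0.41 in GrnKO and -0.29 in WT, beside medians over all genes of -0.05 and -0.04. With the leukocyte marker level in the model, 0 of the 35 passed in GrnKO or over both genotypes, among 2 genes called in each.

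Each animal gave both bins, so the direction can be read within animals. In 4 genes, Fos, Egr1, Klf2 and Nr4a1, the high library was below the low library in 12 of 12 animals, as it was in 0.483% of all genes. Dusp1, Btg1, Rhob and Csrnp1 were lower in the high library of 11 of 12 animals, and at least 11 of 12 was reached by 8 of the 35 genes and 1.75% of all genes. With the animal as a block in edgeR, 5 of the 35 fell in the high bin over both genotypes, Btg1 and Nr4a1 in addition to Fos, Klf2 and Dusp1, against 0.788% of all genes.

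Between genotypes, Egr1 was the 1 gene of the 35 that fell in GrnKO, in the high bin and when the 2 libraries of each animal were summed. In the high bin 0.0284% of all genes fell, and in the animal sums 0.0435% of 13801. In the low bin 0 of the 35 passed in edgeR, against 0.326% of all genes in either direction. There 9 of the 35 had an unadjusted p under 0.05 (10.2% of all genes did), 7 of them lower in GrnKO (against 5.12% of all genes), and DESeq2 called 5 of 358 genes in all and limma-voom 1 of 65, against 46 genes in edgeR. In the high bin 12 of the 35 had an unadjusted p under 0.05, all lower in GrnKO (against 3.48% of all genes). The median log2 fold change of the 35, GrnKO over WT, was -0.54 in the high bin and -0.31 in the low bin, beside -0.06 and -0.03 over all genes. Without WT animal 1 these medians of the 35 were -0.29 in the high bin and -0.11 in the low bin, and that of the animal sums was -0.17, against -0.31 with all animals. The mean in the low bin, -0.05, was closer to 0 than the median. Astrocyte markers (9 genes) had median log2 fold changes between genotypes of -1.84 in the low bin and -1.16 in the high bin, and 0 passed. Medians of border-associated macrophage, microglia, neuron, pericyte and choroid plexus markers were also negative in both bins. For border-associated macrophages (7 genes) they were -0.45 in the low bin and -0.62 in the high bin. Those of monocyte, erythrocyte, T and NK cell markers were positive in both bins. Medians of neutrophil, B cell, oligodendrocyte and endothelial markers were positive in the low and negative in the high bin. WT animal 1 is included in all these marker medians. The part of other cells in the genotype differences was not tested.

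In all, 17 of the 35 genes (48.6%) had their highest group mean in WT low and their lowest in GrnKO high, an order found in 14.5% of all genes. Expressed per library as the median deviation of the 22 genes of at least 10 CPM from their own means, on the log2(CPM + 1) scale, GrnKO high libraries lay between -0.88 and -0.07, WT high between -0.31 and 0.54, GrnKO low between -0.22 and 0.35, and WT low between -0.05 and 0.74. Every GrnKO high library lay below the median library of each other group, the lowest of which was -0.05 in GrnKO low.

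**Figure D1:**
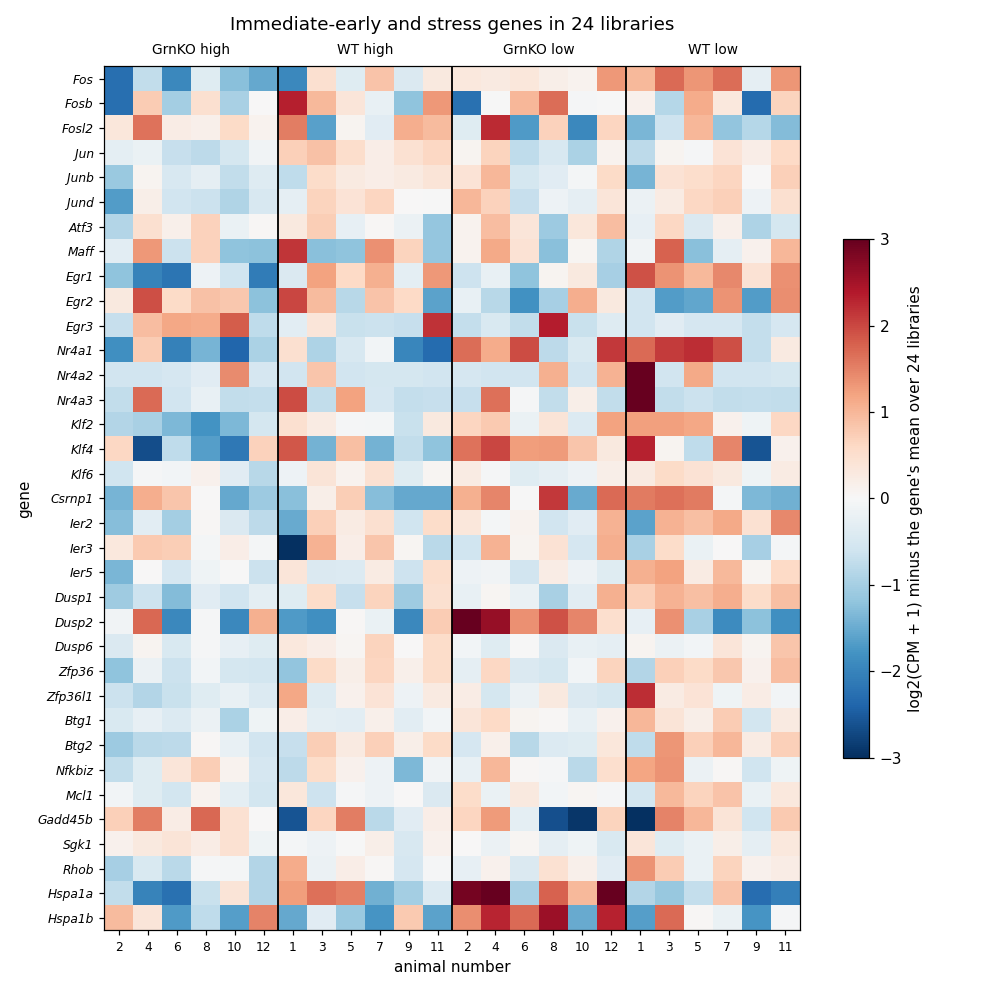
Level of each of the 35 genes in each of the 24 libraries, as log2(CPM + 1) minus the gene's mean over the libraries, with colours clipped at 3 in either direction. Columns are animals by number within GrnKO high, WT high, GrnKO low and WT low, and the GrnKO high columns are mostly blue, as in Fos (26.7 to 102 CPM), where WT low columns are mostly red (108 to 429 CPM).

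**Figure D2:**
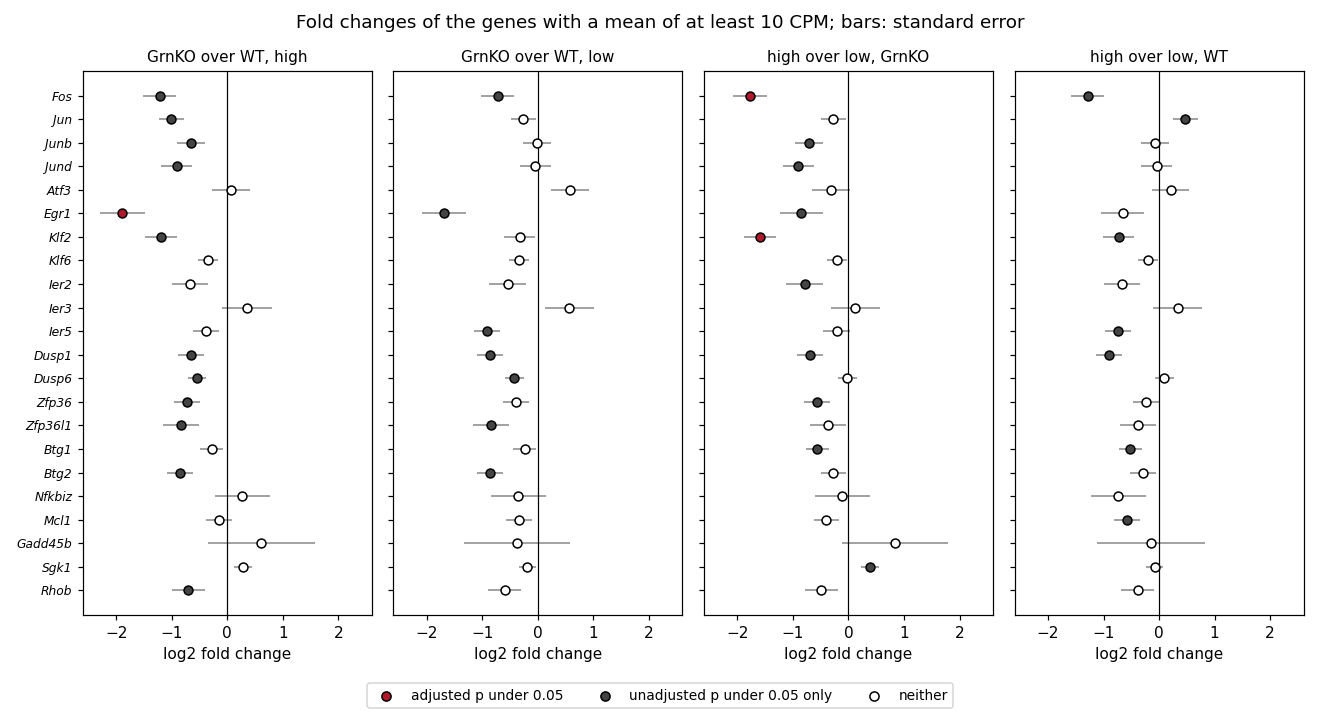
Log2 fold changes with standard errors from edgeR for the 22 genes with a mean of at least 10 CPM, for GrnKO over WT in the high and low bins and for high over low in GrnKO and WT. Red points passed the adjusted threshold (Egr1 between genotypes in the high bin, Fos and Klf2 between bins in GrnKO), dark points had an unadjusted p under 0.05 only, and open points neither.

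Of the AP-1 subunits, only Fos, the inducible partner of the JUN proteins, passed between bins in the fit of all 24 libraries. In GrnKO, Fos lay between 26.7 and 102 CPM (median 49.4) in the high bin, against 140.2 and 323 CPM (median 161) in the low bin. Every GrnKO high library was below every GrnKO low library. The log2 fold change was -1.78 (SE 0.300, edgeR adjusted p = 0.0108). In WT, Fos lay between 33.9 and 238 CPM (median 131) in the high bin, against 108 and 429 CPM (median 332) in the low bin. The WT bins overlapped, though the high library was lower in 6 of 6 animals (log2 fold change -1.28, SE 0.296, edgeR adjusted p = 0.0690). Over both genotypes the log2 fold change was -1.53 (SE 0.211, edgeR adjusted p = 0.000138).

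Without animals 2, 6 or 12 the Fos difference in GrnKO no longer passed, with log2 fold changes of -2.01 to -1.57 and an adjusted p of up to 0.0997 over the animals left out in turn. With the leukocyte marker level in the model, the log2 fold change of Fos in GrnKO was -2.50 (edgeR adjusted p = 0.163) and over both genotypes -2.15 (edgeR adjusted p = 0.0605). Over the alternatives that leave out no single animal, the adjusted p ranged from 3.16e-09 to 0.163 in GrnKO and from 1.89e-14 to 0.0605 over both genotypes. Without the 5 low libraries richest in neutrophil markers, Fos in GrnKO had a log2 fold change of -1.72 (edgeR adjusted p = 0.161). The part of leukocyte RNA in the difference was not tested beyond these fits.

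Between genotypes Fos had a log2 fold change of -1.22 in the high bin (SE 0.296, edgeR adjusted p = 0.136) and -0.72 in the low bin (SE 0.293, edgeR adjusted p = 0.350). As the values above show, the GrnKO and WT ranges overlapped in each bin. Fosb, an inducible FOS family member, had a median of 2.77 CPM in GrnKO high, 7.06 CPM in WT high, 3.90 CPM in GrnKO low and 4.77 CPM in WT low. Fosl2, which encodes FRA-2, had medians of 6.94 CPM in GrnKO high, 8.87 CPM in WT high, 6.66 CPM in GrnKO low and 2.26 CPM in WT low. For neither was an unadjusted p under 0.05 in any comparison.

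Jun encodes the founding JUN protein. Among high libraries Jun lay between 99.0 and 159.8 CPM (median 128) in GrnKO, against 196 and 314 CPM (median 256) in WT. The genotypes did not overlap there, which was so for 0.355% of all genes in the lower direction, but the log2 fold change of -1.01 missed the threshold (SE 0.226, edgeR adjusted p = 0.0718). Among low libraries Jun lay between 88.0 and 274 CPM (median 152) in GrnKO, against 98.5 and 260.4 CPM (median 189.6) in WT, and the groups overlapped (log2 fold change -0.26, edgeR adjusted p = 0.801). In WT its log2 fold change between bins was 0.47 (edgeR adjusted p = 0.579), opposite in sign to that of Fos. In a fit of the high libraries alone Jun passed between genotypes (log2 fold change -1.01, edgeR adjusted p = 0.0155), as it did in 8 of the 12 alternatives that leave out no single animal, over which the adjusted p ranged from 0.00248 to 0.141.

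Junb and Jund, the JUN proteins with weaker transforming activity, showed values of the same sign in the high bin. Junb had a median of 150.1 CPM in GrnKO high and 242 CPM in WT high (log2 fold change -0.65, edgeR adjusted p = 0.558), and Jund 40.9 CPM in GrnKO high and 73.8 CPM in WT high (log2 fold change -0.91, edgeR adjusted p = 0.302). Low libraries had medians of 233 CPM (GrnKO) and 283 CPM (WT) for Junb, and of 68.5 CPM (GrnKO) and 81.3 CPM (WT) for Jund. Between bins in GrnKO the log2 fold changes were -0.71 for Junb (edgeR adjusted p = 0.375) and -0.91 for Jund (edgeR adjusted p = 0.240). None of these passed over all genes. Atf3, a stress-induced repressor that can pair with AP-1 subunits, had medians of 36.8 CPM in GrnKO high, 33.0 CPM in WT high, 44.2 CPM in GrnKO low and 27.0 CPM in WT low, with no unadjusted p under 0.05. Maff, a small MAF factor, reached at most 9.60 CPM in a library.

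Egr1, a zinc finger factor induced through serum response factor, was the gene of the 35 with the smallest p between genotypes. In the high bin it lay between 6.16 and 28.0 CPM (median 10.1) in GrnKO, against 23.2 and 79.2 CPM (median 57.6) in WT. Only the 2 lowest WT libraries reached into the GrnKO range. The log2 fold change was -1.89 (SE 0.403, edgeR adjusted p = 0.0479). In the low bin Egr1 lay between 13.01 and 38.5 CPM (median 23.5) in GrnKO, against 43.2 and 121 CPM (median 82.5) in WT. Here every GrnKO library was below every WT library, which was so for 0.383% of all genes, yet the call was missed (log2 fold change -1.70, SE 0.397, edgeR adjusted p = 0.0552). With both libraries of an animal summed, the log2 fold change was -1.73 (SE 0.310, edgeR adjusted p = 0.0325, n = 6 animals per genotype).

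The call of Egr1 in the high bin ended without any 1 of animals 2, 3, 4, 5, 6, 7, 11 or 12, with log2 fold changes of -2.24 to -1.69 and an adjusted p of up to 0.223. That in the animal sums ended without the same animals, with log2 fold changes of -1.99 to -1.57 and an adjusted p of up to 0.128. In a fit of the high libraries alone the log2 fold change was -1.84 (edgeR adjusted p = 0.144), and over the alternatives that leave out no single animal the adjusted p ranged from 0.000769 to 0.144 in the high bin. With the leukocyte marker level in the model it was -2.002 (edgeR adjusted p = 0.0132). The leukocyte marker sums of the genotypes overlapped in the high bin. Between bins Egr1 had log2 fold changes of -0.85 in GrnKO (edgeR adjusted p = 0.589) and -0.65 in WT (edgeR adjusted p = 0.727). With the leukocyte marker level in the model these were -2.10 in GrnKO (edgeR adjusted p = 0.522) and -1.62 in WT (edgeR adjusted p = 0.312). Over both genotypes the log2 fold change was -0.75 (edgeR adjusted p = 0.242), and -0.82 with the animal as a block (edgeR adjusted p = 0.0740).

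Egr2 and Egr3 encode related zinc finger factors. Egr2 had medians of 7.74 CPM in GrnKO high, 7.91 CPM in WT high, 2.81 CPM in GrnKO low and 1.70 CPM in WT low. Egr3 had medians of 2.50 CPM in GrnKO high, 0.246 CPM in WT high, 0.174 CPM in GrnKO low and 0.212 CPM in WT low, and over both genotypes a log2 fold change of 2.12 between bins (edgeR adjusted p = 0.446), which was -0.99 with the leukocyte marker level in the model. In neither did a comparison pass.

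The NR4A genes encode orphan nuclear receptors. Nr4a1 (NUR77) lay between 0 and 7.81 CPM (median 0.704) in GrnKO high, against 1.99 and 21.7 CPM (median 12.8) in GrnKO low. In WT it lay between 0.0480 and 6.21 CPM (median 2.22) in the high bin, against 2.16 and 22.8 CPM (median 17.3) in the low bin. The bins overlapped in each genotype, while the high library was lower in 12 of 12 animals. Over both genotypes the log2 fold change was -2.70 (SE 0.773, edgeR adjusted p = 0.0865). With the animal as a block it was -3.54 (SE 0.785, edgeR adjusted p = 0.0294), and over the alternatives that leave out no single animal the adjusted p ranged from 0.00317 to 0.752. With the leukocyte marker level in the model the log2 fold change was -2.17 (edgeR adjusted p = 0.752). Nr4a2 and Nr4a3 were under 6 CPM outside WT low animal 1, where they reached 25.8 and 43.9 CPM, and neither had an unadjusted p under 0.05.

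Klf2, a KLF factor that restrains inflammatory transcription in myeloid and endothelial cells, was the second gene to pass between bins within GrnKO. It lay between 31.0 and 75.2 CPM (median 49.2) in GrnKO high, against 82.5 and 253 CPM (median 158) in GrnKO low. The GrnKO bins did not overlap, as was so for 0.852% of all genes in the lower direction. The log2 fold change was -1.59 (SE 0.284, edgeR adjusted p = 0.0150). In WT it lay between 68.9 and 153 CPM (median 119) in the high bin, against 99.9 and 258 CPM (median 207) in the low bin, with overlap (log2 fold change -0.73, edgeR adjusted p = 0.434). Over both genotypes the log2 fold change was -1.16 (SE 0.198, edgeR adjusted p = 0.00156).

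The GrnKO call of Klf2 ended without any 1 of animals 2, 4, 6, 8 or 12 (log2 fold changes of -1.68 to -1.50, adjusted p of up to 0.0965). With the leukocyte marker level in the model, its log2 fold change was -1.36 in GrnKO (edgeR adjusted p = 0.608) and -0.95 over both genotypes (edgeR adjusted p = 0.469). Over the alternatives that leave out no single animal the adjusted p ranged from 3.33e-06 to 0.608 in GrnKO and from 5.11e-07 to 0.469 over both genotypes. The part of leukocyte RNA was not tested further. Between genotypes in the high bin, the log2 fold change of Klf2 was -1.19 (edgeR adjusted p = 0.111). Klf4 had medians of 1.88 CPM in GrnKO high, 2.27 CPM in WT high, 14.2 CPM in GrnKO low and 5.82 CPM in WT low, with no unadjusted p under 0.05 in the fit without an animal block. With the animal as a block, the log2 fold change of Klf4 between bins in GrnKO was -3.08 (edgeR unadjusted p = 0.0390, adjusted p = 0.555). Klf6 had medians of 109 CPM in GrnKO high, 133 CPM in WT high, 118 CPM in GrnKO low and 153 CPM in WT low, and a log2 fold change of -0.34 between genotypes in the animal sums (edgeR adjusted p = 0.451).

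**Figure D3:**
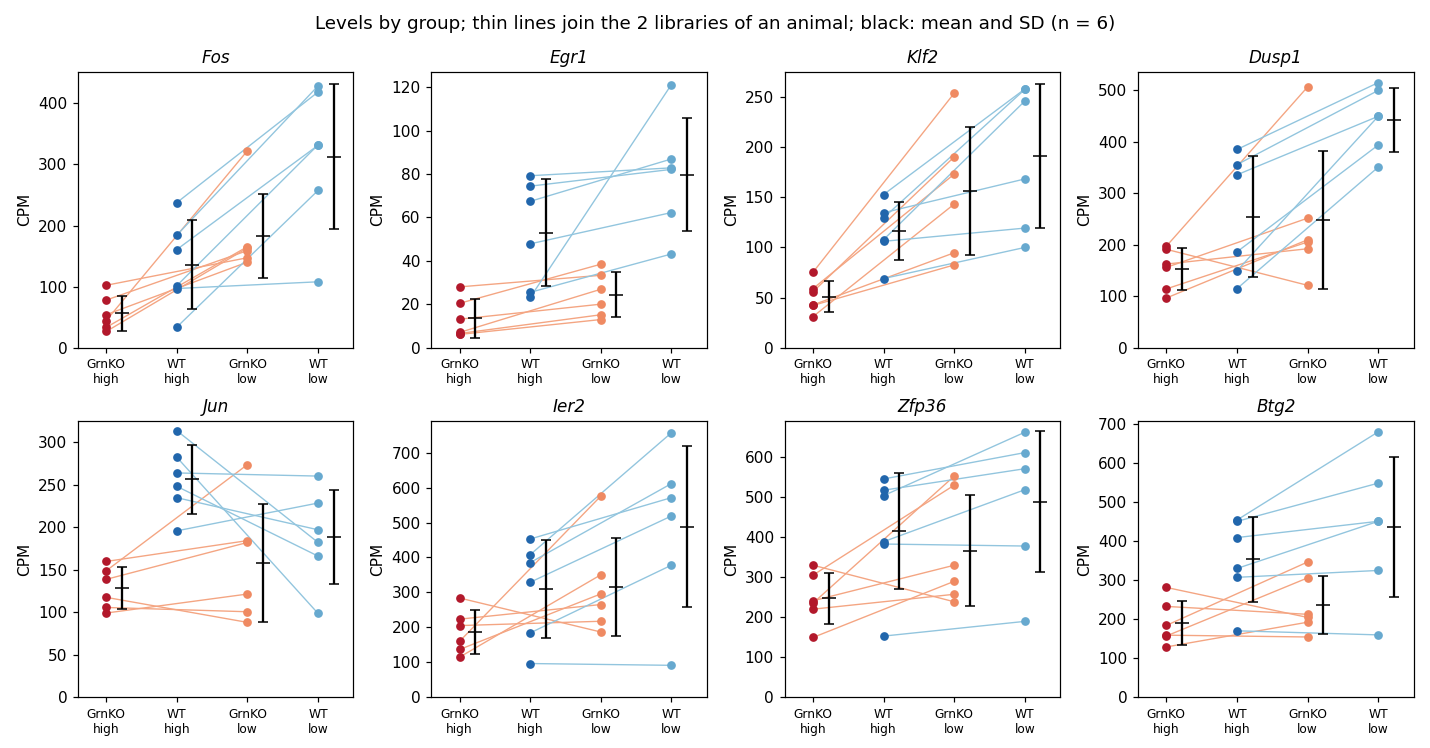
CPM of Fos, Egr1, Klf2, Dusp1, Jun, Ier2, Zfp36 and Btg2 in GrnKO high, WT high, GrnKO low and WT low, with a line joining the 2 libraries of an animal and the mean with its SD in black (n = 6). In Fos, Egr1 and Klf2 the high end of every line lies below its low end, and the GrnKO low points of Egr1 (13.01 to 38.5 CPM) all lie below the WT low points (43.2 to 121 CPM).

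Of the brakes on MAPK signalling, Dusp1, a phosphatase of p38 and JNK that is itself an immediate-early gene, fell in the high bin over both genotypes (log2 fold change -0.80, SE 0.169, edgeR adjusted p = 0.0119). In GrnKO it lay between 96.8 and 197 CPM (median 159) in the high bin, against 121 and 507 CPM (median 208) in the low bin. In WT it lay between 115 and 385 CPM (median 261) in the high bin, against 351 and 515 CPM (median 449.7) in the low bin. The bins overlapped in both genotypes, and 11 of 12 animals were lower in the high bin. The call held without each animal in turn, with an adjusted p of up to 0.0476. With the leukocyte marker level in the model the log2 fold change was -0.85 (edgeR adjusted p = 0.493), and over the alternatives that leave out no single animal the adjusted p ranged from 0.000148 to 0.493. Between genotypes Dusp1 had a log2 fold change of -0.86 in the low bin (edgeR adjusted p = 0.127) and -0.66 in the high bin (edgeR adjusted p = 0.471).

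Dusp6, the phosphatase of ERK that is induced by ERK activity, lay between 114 and 167 CPM (median 127) in GrnKO high, against 158 and 250.4 CPM (median 189) in WT high. Low libraries lay between 117 and 157 CPM (median 133) in GrnKO, against 139 and 284 CPM (median 167) in WT. The genotypes overlapped at the edges in both bins. The log2 fold change was -0.54 in the high bin (edgeR adjusted p = 0.309) and -0.43 in the low bin (edgeR adjusted p = 0.334), and those between bins were -0.02 in GrnKO and 0.09 in WT.

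Dusp2, a nuclear phosphatase known from activated lymphocytes and macrophages, went the other way in the low bin without passing. It lay between 4.38 and 30.4 CPM (median 11.5) in GrnKO low, against 0.0322 and 8.93 CPM (median 0.777) in the WT low libraries. High libraries had medians of 2.65 CPM (GrnKO) and 1.24 CPM (WT). The low-bin groups overlapped through 1 WT library, and the log2 fold change was 3.15 (SE 1.44, edgeR adjusted p = 0.445). In the animal sums it was 2.37 (SE 0.624, edgeR adjusted p = 0.189, and 0.00467 to 0.220 over the alternatives that leave out no single animal). T and NK cell markers (11 genes) in sum reached 432 to 1136 CPM in GrnKO low libraries, against 115 to 623 CPM in the WT low libraries, and their part in the Dusp2 values was not tested.

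Zfp36, which encodes the mRNA-destabilizing protein tristetraprolin, had medians of 238 CPM in GrnKO high, 446 CPM in WT high, 309.8 CPM in GrnKO low and 545 CPM in WT low. Its log2 fold change between genotypes was -0.72 in the high bin (edgeR adjusted p = 0.355), and between bins in GrnKO it was -0.56 (edgeR adjusted p = 0.491). Without WT animal 1, whose high library held 153 CPM, Zfp36 passed between genotypes in the high bin (log2 fold change -0.87, edgeR adjusted p = 0.0122). Its relative Zfp36l1 had medians of 41.4 CPM in GrnKO high, 68.9 CPM in WT high, 48.6 CPM in GrnKO low and 70.8 CPM in WT low, with log2 fold changes between genotypes of -0.83 in the high bin (edgeR adjusted p = 0.536) and -0.84 in the low bin (edgeR adjusted p = 0.315). Without WT animal 1, whose low library held 280 CPM of Zfp36l1, they were -0.61 in the high bin and -0.31 in the low bin.

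Btg1 and Btg2 encode antiproliferative proteins that recruit the deadenylase of mRNAs. Btg2 lay between 128 and 280.5 CPM (median 171) in GrnKO high, against 169 and 453 CPM (median 369) in WT high. Low libraries lay between 154 and 346 CPM (median 208) in GrnKO, against 159 and 679 CPM (median 449.7) in WT. The lowest WT value of each bin was that of animal 1, and the genotypes overlapped. The log2 fold change was -0.85 in the high bin (edgeR adjusted p = 0.211) and -0.86 in the low bin (edgeR adjusted p = 0.104). Without animal 1 Btg2 fell in GrnKO in the low bin (log2 fold change -1.02, edgeR adjusted p = 0.00344), in the high bin and in the animal sums. Between bins, Btg1 had a log2 fold change of -0.54 over both genotypes (SE 0.146, edgeR adjusted p = 0.0631) and of -0.51 with the animal as a block (SE 0.113, edgeR adjusted p = 0.0290, and 0.00540 to 0.482 over the alternatives that leave out no single animal). With the leukocyte marker level in the model it was -0.68 (edgeR adjusted p = 0.482).

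The IER genes are named for their immediate-early response. Ier5, a regulator of heat shock factor, lay between 45.1 and 119 CPM (median 96.2) in GrnKO high, 76.6 and 173 CPM (median 116) in WT high, 79.8 and 139 CPM (median 107) in GrnKO low, and 124 and 275 CPM (median 207) in WT low. The WT low group stood above the others in median. The log2 fold change was -0.91 between genotypes in the low bin (edgeR adjusted p = 0.0951) and -0.74 between bins in WT (edgeR adjusted p = 0.264). Ier2 had medians of 182 CPM in GrnKO high, 357 CPM in WT high, 280.4 CPM in GrnKO low and 545 CPM in WT low, and a log2 fold change between bins of -0.79 in GrnKO (edgeR adjusted p = 0.491) and -0.73 over both genotypes (edgeR adjusted p = 0.155). Ier3 had medians of 27.8 CPM in GrnKO high, 25.3 CPM in WT high, 28.1 CPM in GrnKO low and 21.2 CPM in WT low, with no unadjusted p under 0.05.

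Among the remaining stress genes, Rhob, a small GTPase of endosomes, had medians of 28.3 CPM in GrnKO high, 44.1 CPM in WT high, 42.8 CPM in GrnKO low and 61.5 CPM in WT low. Its log2 fold change between genotypes in the high bin was -0.70 (edgeR adjusted p = 0.642), and -0.39 without WT animal 1. Mcl1, an antiapoptotic BCL2 relative with a short-lived mRNA, had medians of 88.0 CPM in GrnKO high, 104 CPM in WT high, 112 CPM in GrnKO low and 157 CPM in WT low, and a log2 fold change between bins in WT of -0.58 (edgeR adjusted p = 0.475). Sgk1, a kinase induced by glucocorticoids and cell shrinkage, had a positive log2 fold change between bins in GrnKO, where that of Fos was negative. It lay between 258 and 392 CPM (median 339.8) in GrnKO high, against 207 and 296 CPM (median 257) in GrnKO low, and 6 of 6 GrnKO animals had more of it in their high library, as was so for 3.28% of all genes (log2 fold change 0.39, edgeR adjusted p = 0.478). With the leukocyte marker level in the model the log2 fold change was -0.033. Its WT medians were 278 CPM in the high bin and 286 CPM in the low bin (log2 fold change -0.08). Gadd45b, a stress sensor of MAPK kinases, Nfkbiz, a nuclear NF-kB cofactor, and Csrnp1, an AXIN1-induced factor, had medians between 0.209 and 11.7 CPM in the 4 groups and no unadjusted p under 0.05 in the fit without an animal block. With the animal as a block, Csrnp1 had a log2 fold change between bins of -2.80 over both genotypes (edgeR unadjusted p = 0.00711, adjusted p = 0.183).

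Hspa1a and Hspa1b encode the inducible HSP70 chaperones. Their promoters shown above share 247 of 250 bases (98.8%). The transcripts of Hspa1a and Hspa1b share 2181 of 2200 aligned bases (99.1%, GENCODE M21), so reads from that stretch are uncertain between the genes. After the aligned stretch, 770 bases of Hspa1a and 603 bases of Hspa1b remain at the 3′ end. The cDNA was made with a 3′ DE kit, and how far reads were shared between the genes was not tested. Summed over both, the level lay between 9.27 and 59.7 CPM (median 40.0) in GrnKO low, against 0.0540 and 11.4 CPM (median 3.55) in the WT low libraries. High libraries lay between 0.132 and 10.3 CPM (median 4.74) in GrnKO, against 0.899 and 16.9 CPM (median 8.93) in WT. GrnKO low stood above the other 3 groups in median, with overlap in its lowest libraries.

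For the sum, the log2 fold change was 2.88 between genotypes in the low bin (SE 0.869, unadjusted p = 0.00269, edgeR adjusted p = 0.168) and -0.90 in the high bin (SE 0.821, edgeR adjusted p = 1.00). Between bins it was -2.71 in GrnKO (SE 0.865, edgeR adjusted p = 0.273) and 1.07 in WT (SE 0.853, edgeR adjusted p = 0.850). Hspa1a alone had 3.41 between genotypes in the low bin (SE 1.06, edgeR adjusted p = 0.178) and -3.51 between bins in GrnKO (edgeR adjusted p = 0.245). Hspa1b alone had 2.16 between genotypes in the low bin (edgeR adjusted p = 0.662). None of these passed in edgeR. In DESeq2 Hspa1a passed between genotypes in the low bin (adjusted p = 0.0130, with 0.457 the highest over the alternatives that leave out no single animal) and between bins in GrnKO (adjusted p = 0.00907, highest 0.783), and it also did in edgeR without a filter on low counts (adjusted p of 0.0136 and 0.0104). Erythrocyte markers (5 genes) had sums of 54.5 to 37593 CPM in GrnKO low libraries, against 4.69 to 37.8 CPM in the WT low libraries. Their part in the Hspa1a and Hspa1b values was not tested.

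**Figure D4:**
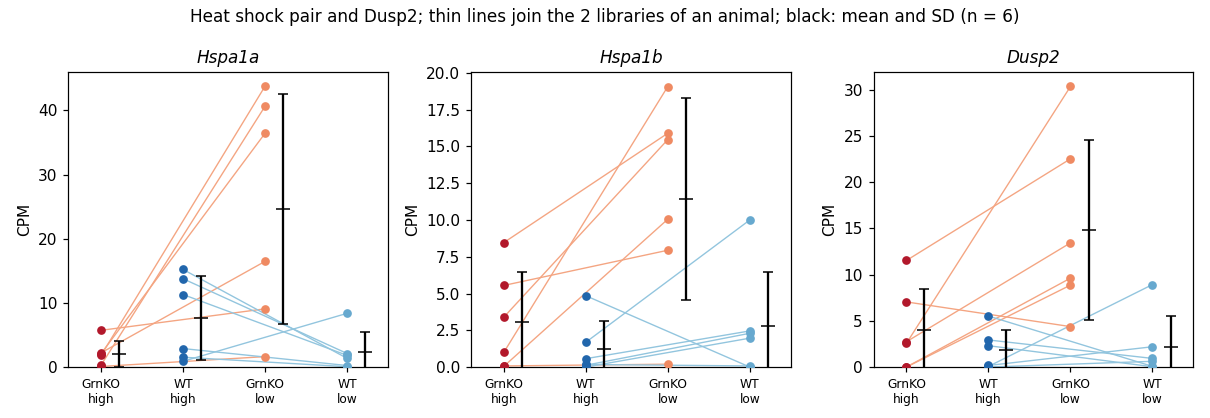
CPM of Hspa1a, Hspa1b and Dusp2 in GrnKO high, WT high, GrnKO low and WT low, with a line joining the 2 libraries of an animal and the mean with its SD in black (n = 6, bars cut at 0). GrnKO low libraries reach 43.8 CPM for Hspa1a, 19.1 CPM for Hspa1b and 30.4 CPM for Dusp2, while the lowest libraries of that group hold 1.63, 0.195 and 4.38 CPM of the same genes.

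Whether the difference between bins itself differed with genotype was tested by an interaction. It called 0 of the 35 genes and 0 of 14090 in edgeR, with an unadjusted p under 0.05 in 5 of the 35 and in 738 genes (5.24%). DESeq2 called 1 of the 35, Hspa1a, among 71 genes in all, and limma-voom 0, with 1 gene in all. The 5 were Hspa1a (log2 difference -5.29, edgeR adjusted p = 0.786), Klf2 (-0.86, edgeR adjusted p = 0.928), Jund (-0.87, edgeR adjusted p = 0.919), Jun (-0.75, edgeR adjusted p = 0.875) and Sgk1 (0.47, edgeR adjusted p = 0.944), as high over low in GrnKO minus the same in WT. The larger Klf2 fold in GrnKO than in WT is therefore not shown to differ between genotypes.

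**Figure D5:**
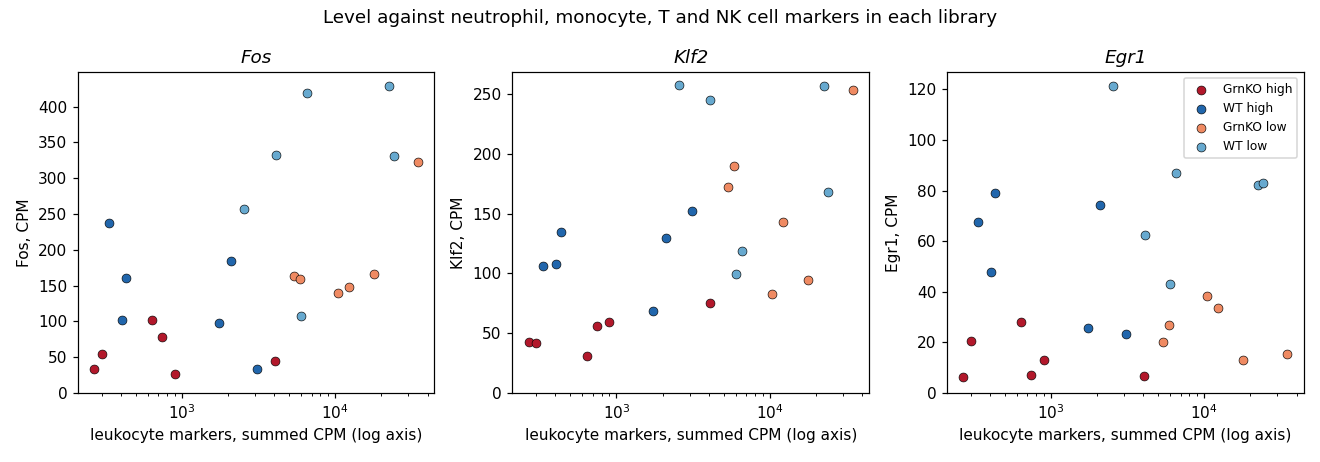
CPM of Fos, Klf2 and Egr1 in each library against the summed CPM of neutrophil, monocyte, T and NK cell markers on a log axis, for GrnKO high, WT high, GrnKO low and WT low. GrnKO high libraries sit at 268 to 4051 CPM of markers and GrnKO low libraries at 5367 to 34753 CPM, so in GrnKO bin and marker level go together and cannot be told apart.

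Related genes outside the set were read from 8 lists with 176 genes, of which 175 were in the table. In the list of 42 other immediate-early genes, 34 were tested, and 1 fell in GrnKO in the low bin, Zfp36l2, the third member of the ZFP36 family. It averaged 91.4 ± 25.4 CPM in GrnKO low and 210.3 ± 67.4 CPM in WT low (SD, n = 6 each; log2 fold change -1.21, SE 0.263, edgeR adjusted p = 0.0312). Between bins, 27 of the 34 had a negative log2 fold change over both genotypes, as had 53% of all genes (median -0.29, beside -0.04 over all genes). In edgeR 0 passed, and 6 were lower and 0 higher at an unadjusted p under 0.05, against 6.76% and 4.43% of all genes.

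In the other 7 lists no gene passed in any comparison in edgeR. Of 17 tested genes of the integrated stress response, the programme run by ATF4, 9 had a positive and 8 a negative log2 fold change between genotypes in the low bin. At an unadjusted p under 0.05, 3 were higher in GrnKO there and 1 was lower, against 5.07% and 5.12% of all genes. Psat1, a serine synthesis enzyme and ATF4 target, averaged 80.8 ± 33.3 CPM in GrnKO low and 19.8 ± 13.2 CPM in WT low (SD, n = 6 each; log2 fold change 1.98, edgeR adjusted p = 0.0616), and Atf4 91.1 ± 19.7 CPM in GrnKO low and 48.4 ± 19.9 CPM in WT low (log2 fold change 0.93, edgeR adjusted p = 0.134). Of 26 NF-kB early response genes, 12 had a positive and 14 a negative log2 fold change between bins over both genotypes (median -0.03, beside -0.04 over all genes). At an unadjusted p under 0.05, 3 were higher and 3 lower, against 4.43% and 6.76% of all genes. The smallest p of the list was that of the cytokine Il1b there (log2 fold change -1.61, edgeR adjusted p = 0.0620). Cd83 had a positive log2 fold change between bins in WT (0.71, edgeR adjusted p = 0.301). Of the upstream kinases and serum response factor genes, Mapk9, which encodes JNK2, averaged 7.34 ± 2.51 CPM in GrnKO low and 19.5 ± 8.89 CPM in WT low (SD, n = 6 each; edgeR adjusted p = 0.142). Of the other heat shock genes, the constitutive Hspa8 averaged 661 ± 107 CPM in GrnKO low and 511 ± 136 CPM in WT low (SD, n = 6 each; log2 fold change 0.37, edgeR adjusted p = 0.408). Their median of 24 genes was 0.05 in that comparison.

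Leaving out WT animal 1, the animal that stood apart, raised the counts between genotypes and those between bins over both genotypes, among the 35 and among all genes. The medians of the 35 between genotypes moved toward 0 as given above. Within WT, within GrnKO and in the interaction the counts of the 35 stayed at 0, 2 and 0. All genes called there were 53, 62 and 0, against 35, 29 and 0 with all animals. Between genotypes, 5 then fell in GrnKO in the high bin (Btg2, Egr1, Fos, Jun and Zfp36) out of 50 genes called (23 with all animals), and 6 in the animal sums (Btg2, Dusp1, Egr1, Fos, Ier2 and Zfp36) out of 142 (34 with all animals). Between bins, 7 fell over both genotypes (Btg1, Dusp1, Fos, Ier2, Klf2, Mcl1 and Nr4a1) out of 312 genes called (185 with all animals). In the low bin 1 fell between genotypes (Btg2) out of 116 (46 with all animals). Egr1 in the low bin passed without animal 9 or animal 10, with log2 fold changes of -1.98 to -1.46 and adjusted p of 0.0248 to 0.144 in edgeR over the animals left out in turn.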

How the data were processed

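RNA of 24 libraries from 12 mice was measured. Per the labels' protocols, 1000 sorted cells per bin were lysed, cDNA was made with SMART-Seq v4 3′ DE and Nextera XT, and single-end reads of 100 bases were sequenced. Per the submitters' processing notes, STAR 2.7.9a, Salmon 1.10.1, edgeR 4.6.2, R 4.5.1 and GRCm39 were used. The authors deposited a table of estimated counts per gene, written to 2 significant digits (a rounding of up to 5%), in which 8.28% of the values between 0 and 10 were not whole (tolerance 1e-09). They also deposited a table of normalized CPM values, used here as a signal to choose genes with a mean of at least 1, and a sample table with library sizes (column sums of the counts lay within 0.22%) and a normalization factor, a ratio as deposited, that correlated at 0.985 with the factors computed here. Libraries held 12.9 to 46.8 M counts and 10978 to 12978 genes with at least 10 counts. The design had assumed raw counts, and the estimated counts were rounded to whole numbers.

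Counts were tested with edgeR 4.0.16 (quasi-likelihood, robust) in R 4.3.3, after its filter by group (14090 genes) and scaling by trimmed mean of M values, with the sex label as covariate and Benjamini-Hochberg adjustment over all genes. The bins of an animal were also summed for the genotype comparison (13801 genes). The common biological coefficient of variation was 1.08, and 0.813 in the sums. limma 3.58.1 and DESeq2 1.42.0, other filters and scalings, animals left out and the animal as a block were alternatives. High and low libraries with 1 number come from 1 animal by the labels. Their deviations from the group means correlated at -0.0476 to 0.361 (median 0.112, over 7214 genes), with the own animal as best match in 5 of 12. No library was a copy of another (0 of 60 pairs within groups identical, chi-square per gene of at least 111). How strand was handled in counting is not stated in the labels, so overlapping genes may share reads. The code was tested on simulated counts. Separate animals make the replicates, and 2 libraries of an animal are not independent, though the main fit did not pair them.

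Members and lists were chosen with earlier results of these data known. Named are all 35 members, those with an unadjusted p under 0.05 in a comparison with their fold change, and, of each list, genes that passed or the 2 of smallest p, of which those in the text are a selection. Zfp36l2 was among the earlier results. Promoters came from RefSeq (GRCm38.p6) and transcripts from GENCODE M21, read with Biopython 1.88. Python 3.11.15 with matplotlib 3.10.9 drew the figures.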

Additional observations from a re-analysis of the deposited data

Results flagged for a closer look

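Of 95 groups of 6 libraries tested for a sample far from the rest, 8 held one by Dixon's test at the 95% level, a test that chance passes in about 1 of 20 groups. The values that stood apart in CPM, with the nearest other library of the group, follow. Fos was 323 in GrnKO low animal 12, where the next highest was 166, and 108 in WT low animal 9, where the next lowest was 258. Hspa1b was 0.195 in GrnKO low animal 10, where the next lowest was 7.94.

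The other 5 belonged to WT animal 1, the animal with the highest mitochondrial share. Junb was 119 in its high library (next lowest 231) and 75.8 in its low library (next lowest 205). Ier2 was 90.9 in the low library (next lowest 378), and Zfp36 was 153 in the high library (next lowest 383). Zfp36l1 was 280 in the low library, where the next highest was 79.6. In the same libraries astrocyte markers summed to 2207 CPM (high) and 1956 CPM (low), and choroid plexus markers to 20529 CPM and 24712 CPM. Their part in these values was not tested.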

How the results depend on the processing

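The number of the 35 genes called moved with the test and filter as follows, with the comparison between genotypes in the low bin, the high bin and the animal sums as low, high and sums, and between bins as WT, GrnKO and both genotypes. Without a filter on low counts it was 4 (low), 5 (high), 4 (sums), 2 (WT), 4 (GrnKO), 5 (both) and 1 (interaction). All genes called there were 313, 284, 363, 299, 360, 1040 and 329 in the same order. In the main fit they were 46, 23, 34, 35, 29, 185 and 0. With a mean of at least 10 CPM the number of the 35 was 2 (low), 2 (high), 3 (sums), 1 (WT) and 4 (both). These were among 91, 26, 59, 39 and 126 genes in all. DESeq2 gave 5 (low), 5 (high), 7 (sums), 2 (WT), 3 (GrnKO), 6 (both) and 1 (interaction). It called 358, 192, 268, 261, 297, 503 and 71 genes in all. limma-voom gave 1 (low), 2 (high), 3 (sums), 1 (WT) and 4 (both), among 65, 46, 87, 49 and 245 genes in all. With the animal as a random replicate block in limma-voom the number of the 35 was 1 (low), 3 (high), 1 (WT) and 4 (both). These were among 64, 49, 84 and 313 genes in all. With the animal as a fixed replicate block it was 5 (both), among 216 genes. The random block left the counts in GrnKO and the interaction at 2 and 0, as did the fixed block, which also left that in WT at 0. Scaling by library size alone gave 1 (low), 3 (high) and 4 (both), among 48, 21 and 185 genes in all. It moved the median of all genes to -0.17 (low), -0.15 (high), -0.17 (GrnKO) and -0.20 (WT). Without the sex covariate 1 was called in GrnKO (Klf2), among 20 genes in all. Fos in GrnKO (edgeR adjusted p = 0.0674) and Dusp1 over both genotypes (0.0737) then did not pass. Fits of 1 bin or genotype alone changed Egr1 and Jun as given above.

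Alternatives chosen after seeing the data moved further. Without the 4 libraries over 20000 CPM of choroid plexus markers the counts were 1 (low), 5 (high), 2 (WT), 5 (GrnKO) and 9 (both), among 120.0, 61, 82, 57 and 335 genes in all. The 4 include both libraries of WT animal 1, and no other high library. The 5 genes in the high bin were the same as without that animal. Without the 5 over 10000 CPM of neutrophil markers, all low libraries, the counts were 0 (high) and 0 (GrnKO), among 14 genes and 1 gene in all. The log2 fold changes were -1.89 for Egr1 in the high bin (edgeR adjusted p = 0.128), -1.72 for Fos (0.161) and -1.52 for Klf2 (0.174) in GrnKO, and -1.08 for Klf2 over both genotypes (0.0546). With all libraries they were -1.89, -1.78, -1.59 and -1.16. With the leukocyte marker level in the model the counts were 0 (GrnKO) and 0 (both), among 2 genes in all in each. The median of the 35 in GrnKO was then -0.72, and log2 fold changes turned sign in Sgk1 in GrnKO (-0.033) and Egr3 over both genotypes (-0.99). The cause was not tested. Leaving out each animal in turn gave 0 to 1 (low), 0 to 5 (high), 0 to 6 (sums), 0 to 2 (GrnKO) and 3 to 7 (both), the upper values without WT animal 1 except in GrnKO, where 2 was also the count with all animals. Over all genes the counts then were 30 to 116 (low), 8 to 50 (high), 17 to 142 (sums), 2 to 62 (GrnKO) and 119 to 312 (both).

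Of the fold changes of named genes, 737 kept their direction and side of the threshold over the alternatives apart from leaving out animals, 81 passed it newly, 12 lost it and 2 turned sign. With an animal left out 846 kept both, 18 passed newly and 24 lost it. All genes called ranged from 15 to 358 (low), 14 to 284 (high), 1 to 360 (GrnKO), 5 to 299 (WT) and 2 to 1040 (both), beside 46, 23, 29, 35 and 185. Counts with 2 significant digits and 1000 cells per library limit genes under 10 CPM most, where the libraries of 1 group ran from 0 to 43.9 CPM (Nr4a3 in WT low).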
